A study of Mus musculus with 4 samples.

Results

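Signalling by bone morphogenetic proteins (BMPs), transforming growth factor beta (TGF-β) and activins was examined in the RNA-Seq data of Lgr5+ and Lgr6+ progenitors of the neonatal mouse cochlea. The genes were chosen by their symbols, which took the Bmp, Gdf, Tgfb and inhibin subunit ligands, their receptors, the Smads, and binding proteins such as Nog, Chrd, Fst, Fstl1, Fstl3, Grem1, Bmper and the pseudoreceptor Bambi. Of the 23997 genes in the deposited table, 58 met this rule. Both populations came from cochleae of C57BL/6 mice according to the labels, and the methods give postnatal day 3 as the age for the RNA-Seq. Lgr5+ progenitors were EGFP+ cells sorted from Lgr5-EGFP-IRES-CreERT2 mice and Lgr6+ progenitors were EGFP+ cells sorted from Lgr6-EGFP-IRES-CreERT2 mice, so each population comes from a reporter line of its own. The labels name no treatment. The labels list 2 libraries for each population, 4 in all, and by the methods the replicates are fractions of 1 RNA preparation per population, so they share the mice, the sort and the extraction.

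Ligands of this superfamily are secreted as dimers and bind a pair of type II and a pair of type I receptor kinases. TGF-β and activin receptors phosphorylate Smad2 and Smad3, BMP receptors phosphorylate Smad1, Smad5 and Smad9, and both branches use Smad4 to reach the nucleus, while Smad6 and Smad7 inhibit the pathway and are themselves induced by it. In the cochlea, *Bmp4* is known from the lateral side of the duct, where it takes part in medial to lateral patterning, and opposing gradients of activin and its binding protein follistatin are known to time hair cell (HC) differentiation along the duct.

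The table holds 1 combined value per gene and population, in FPKM, a fragment count that the authors scaled to the length of the transcript and to the number of mapped fragments. There is therefore no spread between replicates, no test was possible, and each difference below is a difference between combined values. The log2 change is log2(FPKM + 1) in Lgr6+ minus that in Lgr5+ cells so a negative value means more in Lgr5+ cells. A gene was kept when its FPKM was at least 1 in at least 1 population, and it was called higher in a population when the difference on this scale was at least 1.5-fold. Because the added 1 shrinks the differences of low genes, the plain ratio of FPKM is given for the genes that matter.

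The authors describe Lgr6+ cells as a subpopulation of Lgr5+ progenitors, so by that account the populations overlap. Neither sorting gene was called higher in the population named for it. *Lgr5* had an FPKM of 9.65 in Lgr5+ cells and 24.99 in Lgr6+ cells, and *Lgr6* had 2.06 and 2.90. The 12 supporting cell markers summed to 4250 FPKM in Lgr5+ and 3854 in Lgr6+ cells, but *S100a1* alone held 2959 and 3177 of these sums. Without it the other 11 summed to 1291 and 677, whereas without *Hes5* (505 and 91.7) the sums were 3745 and 3762. Of the 12, 9 had the lower value in Lgr6+ cells, among them *Hes5* and *Jag1* (107.5 and 59.2). The 8 HC markers summed to 782 and 996, to 305 and 587 without *Pvalb* (477 and 408), and to 740 and 825 without *Otof* (41.6 and 171). Of them, 5, *Otof* included, were called higher in Lgr6+ cells and 0 higher in Lgr5+ cells. Macrophage markers summed to 1.47 FPKM over 8 genes in Lgr5+ cells, where *C1qb*, *C1qc*, *Tyrobp*, *Csf1r* and *Aif1* were listed at 0, and to 256 in Lgr6+ cells, where none was. Endothelial markers (7 genes) summed to 30.7 and 147, glial markers (6 genes) to 34.6 and 212, and mesenchymal and fibrocyte markers (10 genes) to 336 and 604. *Otos*, with 5.60 and 248, carried most of that last difference, and the other 9 genes of its list summed to 330.1 and 355. Pillar cell markers (6 genes) summed to 1755 and 2132, and to 1498 and 1223 without *Npy* (258 and 910). *Npy* was called higher in Lgr6+ and *Ngfr* (2.04 and 0.531) higher in Lgr5+ cells, and the other 4 were not called. Neuronal markers (7 genes) summed to 134 and 160, with 3 called higher in Lgr6+ and 1 higher in Lgr5+ cells. The part of these cell types in the results that follow was not tested, and in such bulk samples fewer cells of a type and less RNA per cell cannot be told apart. Low FPKM values lie on steps, and if 1 step is 1 fragment, they stand for 7774644 fragments in Lgr5+ and 25000675 in Lgr6+ cells, so low genes are measured more coarsely in Lgr5+ cells.

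**Figure D1:**
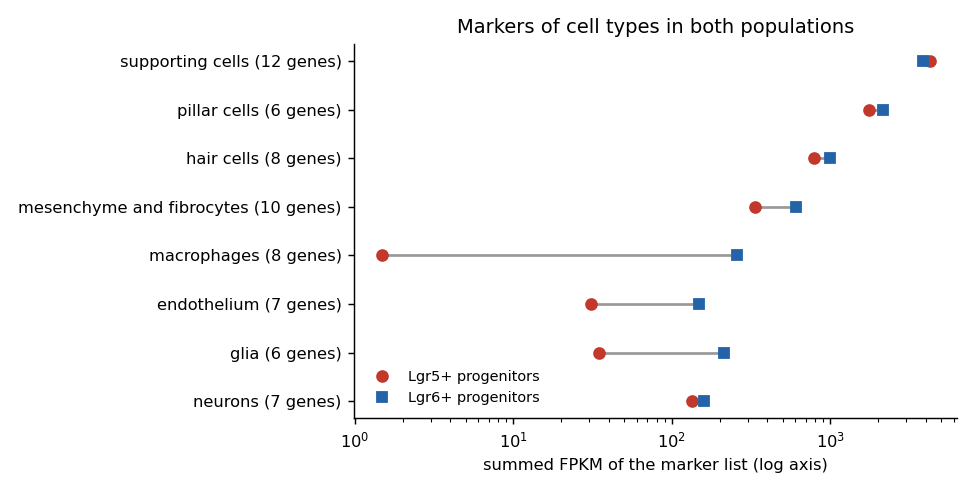
Summed FPKM of 8 lists of cell type markers, on a log axis, for Lgr5+ cells (circles) and Lgr6+ cells (squares), 1 combined value each. The macrophage sums of 1.47 and 256 lie farthest apart, and the supporting cell sums of 4250 and 3854 are mostly *S100a1*, without which they are 1291 and 677. Without *Hes5* instead, the supporting cell sums are 3745 and 3762.

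Of the 58 genes, 39 were kept and 19 were not. Among the kept genes, 18 (46.2%) were called higher in Lgr5+ cells and 10 (25.6%) were called higher in Lgr6+ cells. Over all 13436 kept genes of the table, 51.8% were called, 23.3% higher in Lgr5+ and 28.5% higher in Lgr6+ cells, so a call by itself is common in these data. Of the 39 kept members, 29 reached 1 FPKM in both populations and the others passed through 1 population alone, which makes a difference likely by itself. Among the 29, 13 were higher in Lgr5+ and 5 higher in Lgr6+ cells, where 22.5% and 21.4% of all genes so filtered were. The median log2 change was -0.27 over the kept members and 0.03 over all kept genes. At 2-fold, which 29.9% of all kept genes passed in either direction, 8 members were higher in Lgr5+ cells, where 11.7% of all kept genes were, and 6 were higher in Lgr6+ cells, where 18.2% were. The direction also depended on the level of a gene throughout the table. Of the 818 kept genes with a mean log2(FPKM + 1) of at least 7, 29.7% were called higher in Lgr5+ and 5.87% higher in Lgr6+ cells, whereas of the 987 kept genes with a mean under 1, 26.2% and 63.1% were. When a running median of the log2 change by level was subtracted, an alternative chosen after seeing the data, 19 members were higher in Lgr5+ and 7 in Lgr6+ cells, where 24.4% and 23.7% of all kept genes were. Of the 28 calls, 23 held in each of the alternatives that gave a value at 1.5-fold, 17 toward Lgr5+ and 6 toward Lgr6+ cells. Removal by a filter did not count as a lost call, and the 2-fold threshold was left out. *Bmp8b*, *Bmper*, *Gdf15*, *Inhbb*, *Nog*, *Acvrl1* and *Tgfbr3* are among the 23 although they passed the main filter through 1 population alone.

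**Figure D2:**
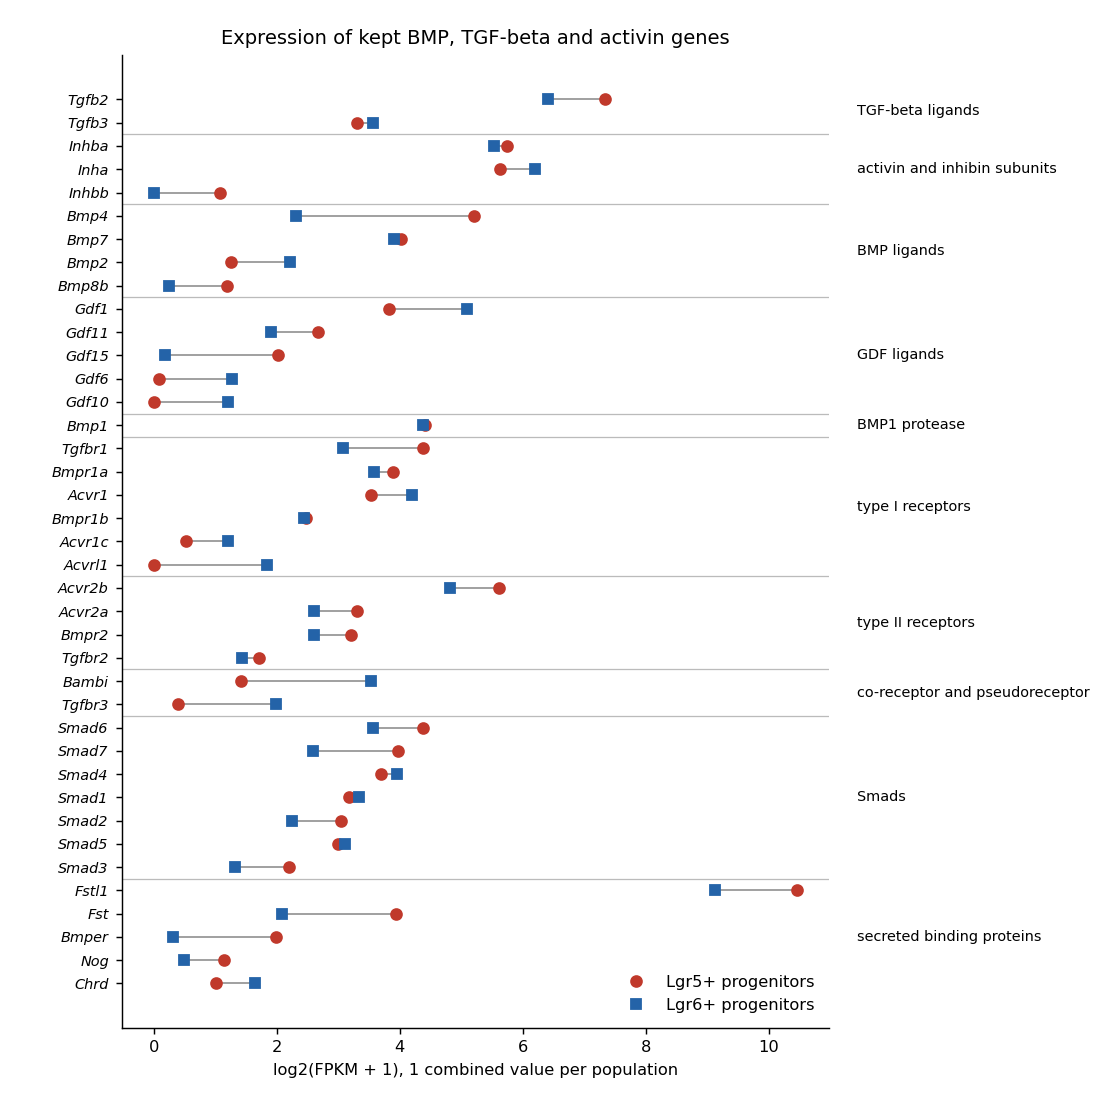
Expression of the 39 kept genes, grouped by role, as log2(FPKM + 1) in Lgr5+ cells (circles) and Lgr6+ cells (squares), 1 combined value each and no error bars, since single libraries were not available here. *Fstl1* and *Tgfb2* are the highest of these genes in both populations, and *Bmp4* shows the widest gap.

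On the log2(FPKM + 1) scale the largest difference among the kept ligands was that of *Bmp4*, at chr14:46379523-46390599 (GRCm38). Its FPKM was 35.7 in Lgr5+ cells and 3.96 in Lgr6+ cells, 9.02 times higher in Lgr5+ cells, with a log2 change of -2.89 that lay between -3.17 and -2.86 over the alternatives. The values correspond to about 517 and 185 steps for its longest annotated transcript, so neither rests on single fragments. By the plain ratio, the kept ligand genes *Gdf15* and *Gdf6* lay farther apart than *Bmp4*, both from very low values. The interval of *Bmp4* in the table is shared with 1 other row, and *Bmp4* overlaps *Gm15217* and *Gm15222* in RefSeq, so its reads may be shared. *Bmp7*, a BMP of the developing sensory epithelium, had nearly the same level in both, 15.1 and 13.99 FPKM. The leading BMP gene thus differed by population. Of the summed FPKM of the 10 BMP ligand genes, *Bmp4* held 65.8% in Lgr5+ and 16.9% in Lgr6+ cells, and *Bmp7* held 27.9% and 59.6%. Such shares within a population do not depend on how the populations are scaled to each other. *Bmp2*, a close relative of *Bmp4*, ran the opposite way at a low level, with 1.38 FPKM in Lgr5+ and 3.62 in Lgr6+ cells, 2.63 times higher in the latter. *Bmp8b* had 1.28 and 0.191 FPKM, from about 27 and 13 steps, and it shares sequence with *Bmp8a*, listed at 0 in both, so its level is uncertain. *Bmp3* (0.0443 and 0.898 FPKM), *Bmp5* (0 and 0.0118) and *Bmp6* (0.757 and 0.782) were not kept, and *Bmp10* and *Bmp15* were listed at 0 in both populations. *Bmp1*, which despite its name is a procollagen protease and not a ligand of this family, had 20.3 and 19.7 FPKM.

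Among the TGF-β genes, *Tgfb2* carried nearly all of the expression. At chr1:186623185-186705992 it had an FPKM of 161 in Lgr5+ and 84.3 in Lgr6+ cells, a log2 change of -0.92, or 1.91 times higher in Lgr5+ cells. It was the highest ligand gene of all in both populations and held 46.2% of the summed FPKM of the 28 ligand genes in Lgr5+ and 30.6% in Lgr6+ cells. After the running median by level was subtracted its log2 change was -0.78. *Tgfb3*, another isoform of the same ligand, was 8.84 in Lgr5+ and 10.8 in Lgr6+ cells and was not called. *Tgfb1*, the isoform best known from immune cells, was at 0.0678 and 0.220 FPKM and was not kept. The macrophage markers summed to 1.47 and 256 beside it, and their part was not tested.

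Activin and inhibin genes showed no call among the abundant subunits. *Inhba*, the βA subunit that forms activin A, had 52.6 FPKM in Lgr5+ and 45.3 in Lgr6+ cells. *Inha*, the α subunit that joins a β subunit to form inhibin, an activin antagonist, had 48.4 and 72.0, a log2 change of 0.56, just under the 1.5-fold line of 0.585. It passed that line after quantile normalization (0.66), after scaling to a common median over genes of 5 FPKM or more (0.59) and after the running median was subtracted (0.70). The ratio of *Inha* to *Inhba* within a population was 0.922 in Lgr5+ and 1.59 in Lgr6+ cells. *Inhbb*, the βB subunit, had 1.12 FPKM in Lgr5+ cells and was listed at 0 in Lgr6+ cells, where 3 steps would be an FPKM of 0.0296. *Inhbc* and *Inhbe*, known as liver genes, were listed at 0 in both. Together the activin and inhibin subunits made up 29.3% of the ligand FPKM in Lgr5+ and 42.6% in Lgr6+ cells, and the TGF-β genes 48.8% and 34.6%.

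The GDF genes were low except for *Gdf1*. *Gdf1*, a ligand known from left-right patterning, had 13.1 FPKM in Lgr5+ and 33.2 in Lgr6+ cells, a log2 change of 1.28. Its interval in the table is shared with 2 other rows, among them that of *Cers1*, a ceramide synthase gene. It also overlaps *Upf1* in RefSeq, so its reads may be shared, and *Cers1* itself had 0.985 and 1.91 FPKM. *Gdf11*, a relative of myostatin that signals through activin receptors, had 5.36 and 2.76, 1.94 times higher in Lgr5+ cells. *Gdf15*, a stress-induced cytokine, had 3.05 FPKM in Lgr5+ and 0.134 in Lgr6+ cells, which are only about 32 and 4 steps. *Gdf6* was 0.0668 and 1.42 and *Gdf10* was listed at 0 in Lgr5+ cells and had 1.30 in Lgr6+ cells. Both were called higher in Lgr6+ cells, but at this low level most genes of the table were, and less the running median their log2 changes were 0.08 and 0.13. *Gdf7* (0 and 0.630 FPKM), *Gdf3* (0.0673 and 0.0360) and *Gdf9* (0.0799 and 0) were not kept, and *Gdf2* and *Gdf5* were listed at 0 in both.

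The type I receptors differed in make-up rather than in total, which was 49.2 FPKM in Lgr5+ and 44.05 in Lgr6+ cells. *Tgfbr1*, the TGF-β type I receptor ALK5 at chr4:47353304-47414924, had 19.9 FPKM in Lgr5+ and 7.44 in Lgr6+ cells, 2.67 times higher in Lgr5+ cells, with a log2 change of -1.31. *Acvr1*, the BMP type I receptor ALK2 at chr2:58446437-58566828, ran the other way, with 10.6 and 17.3 FPKM and a log2 change of 0.66. As a share of the summed type I receptor FPKM, *Tgfbr1* was 40.4% in Lgr5+ and 16.9% in Lgr6+ cells, and *Acvr1* was 21.5% and 39.4%. The main BMP receptors stood close together. *Bmpr1a* had 13.7 and 10.9 FPKM, and *Bmpr1b* had 4.55 and 4.45. The 3 BMP type I receptors *Bmpr1a*, *Bmpr1b* and *Acvr1* together made up 58.7% of the type I sum in Lgr5+ and 74.2% in Lgr6+ cells. *Acvr1b*, the activin type I receptor ALK4, was listed at 0 and 0.0525 FPKM, and its interval in the table is shared with 1 other row. The same holds for the intervals of the called genes *Acvr1c*, *Acvr2a*, *Bmp8b* and *Chrd*. *Acvr1c* (ALK7) had 0.432 and 1.31 FPKM and was called higher in Lgr6+ cells, but less the running median its log2 change was -0.07.

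*Acvrl1*, or ALK1, an endothelial receptor, was listed at 0 in Lgr5+ cells, where 3 steps would be an FPKM of 0.112, and had 2.57 FPKM in Lgr6+ cells. *Eng*, its endothelial co-receptor, is no member but had 1.85 and 6.96. Of the 7 endothelial markers, 6 were called higher in Lgr6+ cells and *Tie1* was called higher in Lgr5+ cells. The part of endothelial RNA in these values was not tested.

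All 4 type II receptors had the lower value in Lgr6+ cells, and 3 of them were called, where 23.3% of all kept genes were called in that direction. *Acvr2b*, a type II receptor for activins and several BMPs, was the most abundant, with 48.1 FPKM in Lgr5+ and 27.03 in Lgr6+ cells and a log2 change of -0.81. *Acvr2a* had 8.87 and 5.08, and *Bmpr2*, the BMP-specific type II receptor, had 8.22 and 5.10. The log2 change of *Bmpr2* was -0.60, and it lost its call at -0.57 when the populations were scaled to a common median over genes of 5 FPKM or more, an alternative chosen after seeing the data. *Tgfbr2*, the TGF-β type II receptor, was low, with 2.26 and 1.69 FPKM and a log2 change of -0.27, and it was called higher in Lgr5+ cells only after quantile normalization (-0.59) and less the running median (-0.60). The summed FPKM was 67.4 in Lgr5+ and 38.9 in Lgr6+ cells while its make-up was nearly the same, with *Acvr2b* at 71.3% and 69.5%.

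Both genes that act beside the kinases were called higher in Lgr6+ cells, as were 28.5% of all kept genes. *Bambi*, a pseudoreceptor that lacks the kinase domain and dampens signalling, had 1.68 FPKM in Lgr5+ and 10.5 in Lgr6+ cells, 6.25 times higher in Lgr6+ cells, with a log2 change of 2.10 and about 63 and 1273 steps. A pseudogene copy, *Bambi-ps1*, had 0.166 and 4.72, and reads may be split between them. *Tgfbr3*, or betaglycan, which presents TGF-β2 and inhibin to their receptors, had 0.309 and 2.96, a log2 change of 1.60. It passed the filter through Lgr6+ cells alone. Less the running median by level, the log2 changes of *Bambi* and *Tgfbr3* were 1.93 and 1.02.

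**Figure D3:**
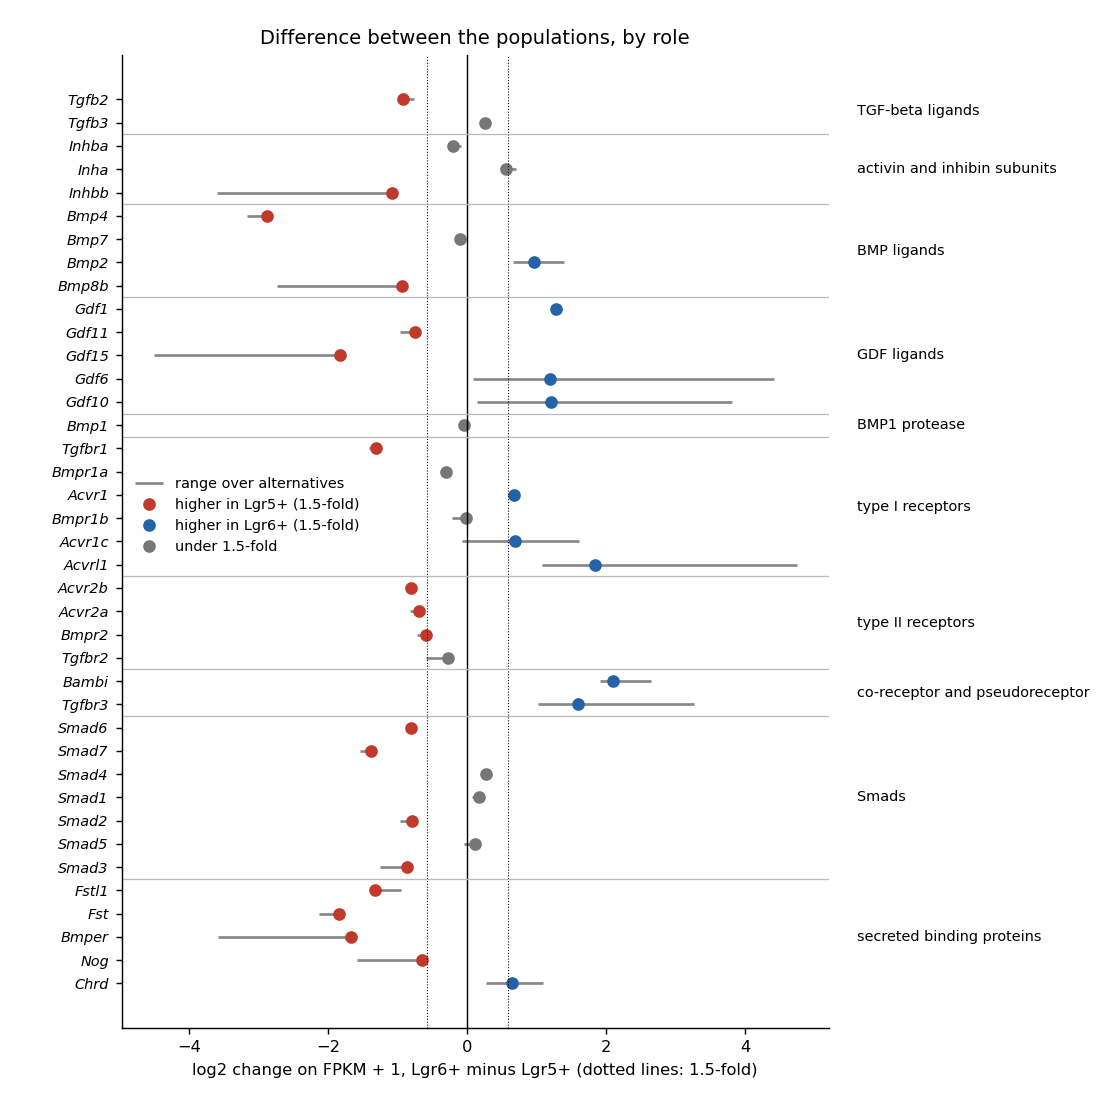
Log2 change on the log2(FPKM + 1) scale (Lgr6+ minus Lgr5+) of the 39 kept genes, by role. Points are the values as reported, coloured by call at 1.5-fold (dotted lines), and grey lines give the range over the alternatives, which is no replicate error. *Bmp4* at -2.89 and *Bambi* at 2.10 lie farthest out on each side, and the low genes *Gdf15*, *Gdf6*, *Gdf10* and *Acvrl1* have the widest ranges.

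Of the 7 kept Smads, 4 (57.1%) were called, near the 51.8% of all kept genes, and all 4 were higher in Lgr5+ cells, as were 23.3% of all kept genes. *Smad2* and *Smad3*, the Smads of the TGF-β and activin branch, were both higher in Lgr5+ cells, with 7.22 and 3.75 FPKM for *Smad2* and 3.57 and 1.498 for *Smad3*, log2 changes of -0.79 and -0.87. *Smad1* and *Smad5*, of the BMP branch, were slightly higher in Lgr6+ cells without being called, with 7.99 and 9.07 FPKM for *Smad1* and 6.99 and 7.64 for *Smad5*. *Smad9*, the third Smad of that branch, was listed at 0 and 0.0124 FPKM. Of the summed FPKM of these 5 genes, *Smad2* and *Smad3* made up 41.9% in Lgr5+ and 23.9% in Lgr6+ cells. *Smad4*, shared by both branches, was not called, with 11.9 and 14.5 FPKM. Both inhibitory Smads were higher in Lgr5+ cells. *Smad7* had 14.7 and 5.03 FPKM, a log2 change of -1.38, and *Smad6* had 19.7 and 10.8, a log2 change of -0.81. Relative to *Smad4* in the same population, *Smad7* was 1.24 in Lgr5+ and 0.346 in Lgr6+ cells, and *Smad6* was 1.65 and 0.747.

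**Figure D4:**
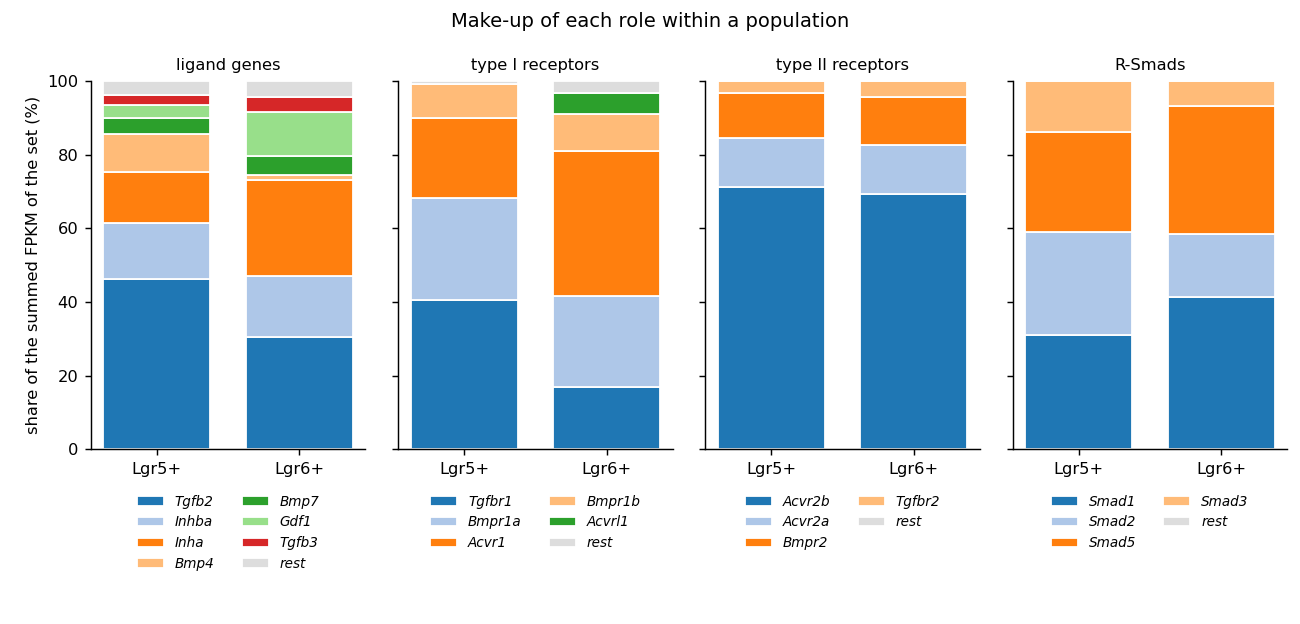
Share (%) of each gene in the summed FPKM of its role within Lgr5+ and Lgr6+ cells, for the 28 ligand genes, 7 type I receptors, 4 type II receptors and 5 receptor-regulated Smads (R-Smads), with genes under 3% in both populations grouped as rest. *Tgfb2* holds 46.2% and 30.6% of the ligand sum, *Tgfbr1* 40.4% and 16.9% of the type I sum, and *Acvr2b* 71.3% and 69.5% of the type II sum.

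Promoters are shown for 4 of the genes that were higher in Lgr5+ cells, each from a different step of the pathway: a BMP ligand, a TGF-β ligand, a receptor and an inhibitory Smad. The sequences are from RefSeq (GRCm38.p6), run 5′ to 3′ on the strand of the gene, begin upstream of its start and end shortly past it, and capitals mark matches to motifs that Smads are known to bind: CAGAC on both strands (so GTCTG as well), GTCTAGAC, which is its own reverse complement, and the GC-rich GGCGCC, likewise its own reverse complement. They do not overlap each other in these promoters.
*Bmp4*, chr14:46390620-46390919, minus strand: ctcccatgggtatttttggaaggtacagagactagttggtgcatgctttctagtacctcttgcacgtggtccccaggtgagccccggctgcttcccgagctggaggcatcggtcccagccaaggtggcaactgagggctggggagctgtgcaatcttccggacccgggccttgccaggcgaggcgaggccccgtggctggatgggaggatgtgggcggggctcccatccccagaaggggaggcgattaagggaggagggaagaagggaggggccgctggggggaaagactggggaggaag
*Tgfb2*, chr1:186705940-186706239, minus strand: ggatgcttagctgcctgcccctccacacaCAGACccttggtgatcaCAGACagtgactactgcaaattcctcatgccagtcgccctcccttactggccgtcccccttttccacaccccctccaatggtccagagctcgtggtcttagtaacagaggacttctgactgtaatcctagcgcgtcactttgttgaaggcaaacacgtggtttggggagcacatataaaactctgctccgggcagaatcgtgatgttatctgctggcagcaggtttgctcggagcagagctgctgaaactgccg
*Tgfbr1*, chr4:47352972-47353271, plus strand: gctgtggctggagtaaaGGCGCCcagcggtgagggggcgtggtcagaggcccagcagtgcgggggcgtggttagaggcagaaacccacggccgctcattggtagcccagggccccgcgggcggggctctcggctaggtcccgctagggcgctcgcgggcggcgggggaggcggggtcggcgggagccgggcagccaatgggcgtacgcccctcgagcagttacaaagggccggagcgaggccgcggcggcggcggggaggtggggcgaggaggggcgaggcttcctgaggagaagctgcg
*Smad6*, chr9:64022010-64022309, minus strand: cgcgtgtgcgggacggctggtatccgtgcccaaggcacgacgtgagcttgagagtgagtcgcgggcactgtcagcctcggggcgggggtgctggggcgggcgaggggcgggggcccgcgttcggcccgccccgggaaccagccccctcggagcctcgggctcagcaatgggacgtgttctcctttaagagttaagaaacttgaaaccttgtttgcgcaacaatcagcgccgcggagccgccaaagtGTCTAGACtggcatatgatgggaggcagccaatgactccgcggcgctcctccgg

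In the *Smad6* promoter the full palindrome GTCTAGAC began 4 bases before the start, and it was found in 1 of the 48 promoters of the 40 members matched and in 70 of all 32851 promoters (0.213%). *Tgfb2* held CAGAC 221 and 204 bases before the start, a motif present in 49.6% of all promoters. *Tgfbr1* held GGCGCC 233 bases before the first of its annotated starts, as did 11.9% of all promoters at some position. The *Bmp4* window held none of these letters. Among the members called higher in Lgr5+ cells, 7 of 16 promoters held CAGAC and 2 of 16 held GGCGCC, against 4 and 3 of 7 for those called higher in Lgr6+ cells. A match describes letters only, and the table says nothing on binding.

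Of the 8 genes for secreted binding proteins, 5 were kept, and *Fstl1* and *Fst* were higher in Lgr5+ cells with at least 1 FPKM in both populations. *Bmper* and *Nog* were called in the same direction but passed the filter through Lgr5+ cells alone. Over all kept genes, 23.3% were called higher in Lgr5+ and 28.5% higher in Lgr6+ cells. Among all genes with at least 1 FPKM in both populations, 22.5% and 21.4% were. *Fstl1*, a follistatin-like glycoprotein that binds several of these ligands, at chr16:37777054-37836516, was by far the highest member, with 1395 FPKM in Lgr5+ and 553 in Lgr6+ cells. Its log2 change was -1.33, and -0.95 less the running median by level, since abundant genes as a whole were lower in Lgr6+ cells. *Fst*, follistatin, which traps activin, at chr13:114452261-114458730, had 14.4 and 3.26 FPKM, 4.41 times higher in Lgr5+ cells, with a log2 change of -1.85 and about 239 and 174 steps. Set against *Inhba* in the same population, the level of *Fst* was 0.274 of it in Lgr5+ and 0.0720 of it in Lgr6+ cells. *Bmper*, a BMP-binding regulator, had 2.97 and 0.248 FPKM, about 83 and 22 steps. *Nog*, noggin, was low, with 1.20 and 0.400 FPKM that stand for about 16 and 17 steps, and *Chrd*, chordin, had 1.01 and 2.14. *Chrd* was called higher in Lgr6+ cells, but not after quantile normalization (0.28) or less the running median (0.26). *Fstl3* was not kept, with 0 and 0.847 FPKM, and its interval in the table is shared with 47 other rows. *Grem1* was listed at 0 in both.

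The pathway was also followed through 85 genes that the symbols did not take, in 3 lists. Of these, 63 were kept, 21 (33.3%) were called higher in Lgr5+ and 17 (27%) higher in Lgr6+ cells, against 23.3% and 28.5% of all kept genes. The median log2 change was -0.11.

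Genes known as transcriptional targets in other settings had the clearest lean of the 3 lists. Of 17 kept genes, 11 (64.7%) were higher in Lgr5+ and 2 (11.8%) higher in Lgr6+ cells, against 23.3% and 28.5% of all kept genes. Their median log2 change was -0.79. Many of them are abundant, and at a mean log2(FPKM + 1) of at least 7, 29.7% and 5.87% of all kept genes were so called. After quantile normalization 8 and 2 targets were called, where 25.5% and 25.5% of all kept genes were. Less the running median by level the counts were 8 and 2, where 24.4% and 23.7% of all kept genes were called. *Id1* and *Id3*, inhibitors of bHLH factors induced by BMP signalling, had 1143 and 488 FPKM and 1523 and 878 FPKM, log2 changes of -1.23 and -0.79. *Id1* kept its call less the running median (-0.84) and *Id3* did not (-0.40). *Id2* had 283 and 337 FPKM and was not called, and *Id4* ran the opposite way with 22.4 and 51.8. The Id genes therefore did not share 1 direction. *Ctgf* and *Cyr61*, matricellular genes that TGF-β induces along with other pathways, had 93.7 and 20.7 FPKM and 502 and 144 FPKM, log2 changes of -2.13 and -1.79. *Gata2* and *Gata3*, otic transcription factors, had 52.4 and 10.98 FPKM and 276 and 157 FPKM. *Junb* (194 and 123 FPKM) and *Tsc22d1* (160 and 104 FPKM) were called by a small margin. Like *Id4*, *Tgfbi*, the TGF-β-induced matrix gene, was called higher in Lgr6+ cells. It had 2.95 FPKM in Lgr5+ and 22.1 in Lgr6+ cells, a log2 change of 2.54. Beside it, 5 of the 10 mesenchymal and fibrocyte markers and all 7 kept macrophage markers were called higher in Lgr6+ cells, while the mesenchymal marker *Lum* was called higher in Lgr5+ cells (179 and 101 FPKM), and their part in this value was not tested.

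**Figure D5:**
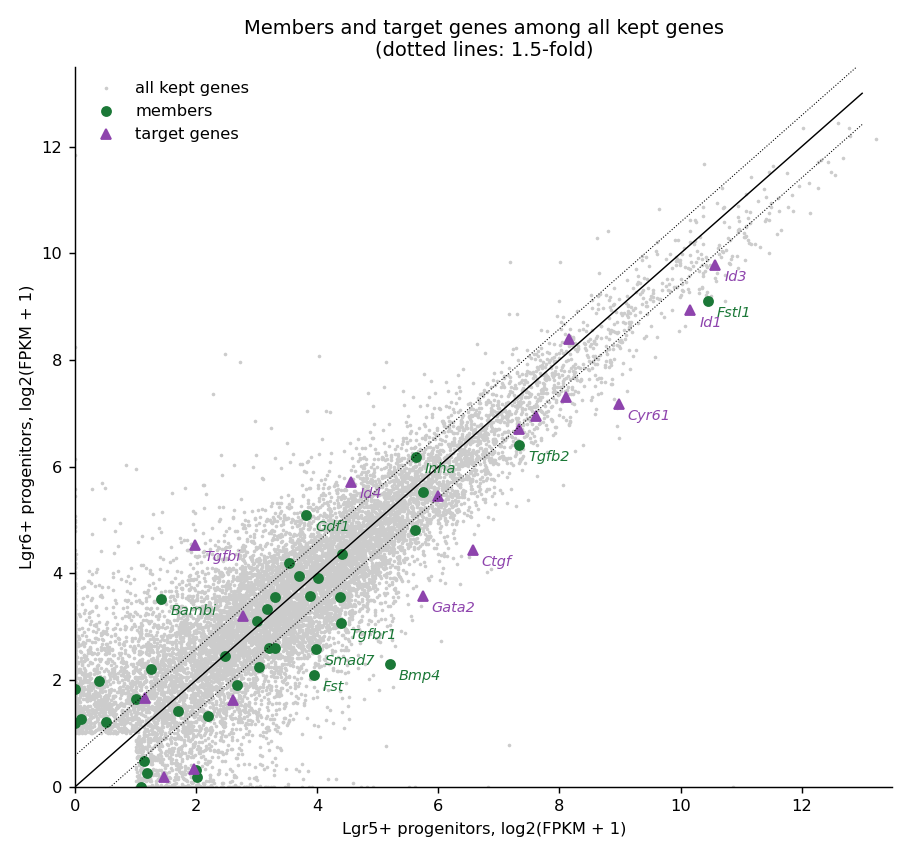
Log2(FPKM + 1) in Lgr5+ cells (x axis) and Lgr6+ cells (y axis) for all 13436 kept genes (grey), the 39 kept members (green circles) and the 17 kept target genes (purple triangles), 1 combined value per population. The solid line marks equal values and the dotted lines 1.5-fold; *Bmp4*, *Ctgf* and *Gata2* lie well below it, *Bambi* and *Tgfbi* above it, and the grey cloud itself bends below the line at high levels.

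Genes that release or hold latent TGF-β were divided. *Itgb6*, the integrin subunit that activates latent TGF-β at epithelia, had 35.8 FPKM in Lgr5+ and 7.14 in Lgr6+ cells, a log2 change of -2.18. *Thbs1*, another activator, had 35.1 and 17.95. The latent TGF-β binding protein genes did not move as 1 group, since *Ltbp3* (79.3 and 43.9 FPKM) and *Ltbp4* (12.7 and 4.99) were higher in Lgr5+ cells and *Ltbp1* (6.25 and 16.9) was higher in Lgr6+ cells. Among BMP antagonists, *Nbl1* (2.62 and 20.6 FPKM) and *Sostdc1* (6.64 and 12.6) were higher in Lgr6+ cells. *Rgma*, a BMP co-receptor, had 15.8 and 9.13, and *Bgn*, a matrix proteoglycan, had 6.47 and 16.4. In this list of 35 extracellular genes, 22 were kept, 5 (22.7%) were called higher in Lgr5+ and 9 (40.9%) higher in Lgr6+ cells, against 23.3% and 28.5% of all kept genes.

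The list of co-receptors and intracellular regulators had calls in both directions. The ubiquitin ligase genes *Smurf1* (4.60 and 11.9 FPKM) and *Nedd4l* (3.93 and 12.2) and the phosphatase gene *Ppm1a* (19.2 and 37.2) were higher in Lgr6+ cells, as was *Lemd3* (6.29 and 10.4), which encodes a nuclear envelope protein that binds R-Smads. *Smurf2*, by contrast, had 15.6 and 12.7 FPKM and was not called, so the ligases did not all differ. *Zfyve16*, an endosomal Smad anchor gene, had 2.76 and 13.9. Called higher in Lgr5+ cells were *Hipk2* (27.8 and 10.9 FPKM), *Tab2* (45.2 and 23.9), *Tgif2* (21.8 and 13.03), *Crebbp* (19.5 and 11.02) and *Tmeff1* (10.9 and 6.45), which encode a kinase, an adaptor, a corepressor, a coactivator and a membrane protein. Over the 24 kept genes of this list, 5 (20.8%) were higher in Lgr5+ and 6 (25%) higher in Lgr6+ cells, shares no higher than those of all kept genes, with a median log2 change of -0.16.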

How the data were processed

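RNA-Seq libraries of sorted Lgr5+ and Lgr6+ progenitors were studied in the form of 1 deposited table. Per the methods and the submitters' processing notes, reads were trimmed with Trimmomatic, mapped with TopHat, annotated with RefGene and quantified with Cufflinks, with versions not given in the sources used here. The FPKM values that the authors deposited combine the libraries of a population. The notes name mm10 and the methods mm9. Of 19655 gene symbols, 99.1% had a table interval that met the gene of that name in GRCm38, and 12.8% in NCBIM37, so positions are read as GRCm38. The table also holds the fold changes, p-values and q-values of the authors' own comparison, which were not used.

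Genes were kept at 1 FPKM or more in either population, and calls were made at 1.5-fold on log2(FPKM + 1). Members were given with both values, except 1 that enters the counts and is not reported here, and other pathway genes were named at an FPKM of at least 10 with a call, apart from *Eng*, *Id2* and *Smurf2*, which were chosen after their values were seen. The members and lists were chosen with earlier results of these data known. Steps were read from 8105 genes with 1 annotated transcript, less 200 bases of its length, and cover counting error only, since amplified fragments are not independent molecules. A member's steps use its longest annotated transcript. Python 3.11.15, numpy 2.4.6 and pandas 2.3.3 were used. The fold calls, the quantile and upper quartile scalings and the step search were tested on simulated data. The 2 alternatives chosen after seeing the data and the motif matches were not.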

Additional observations from a re-analysis of the deposited data

How the results depend on the processing

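No paired analysis was possible because the table holds 1 combined value per population, and no replicate could be left out for the same reason. The alternatives changed the pseudocount (0.1), the filter (none, a minimum of 5 FPKM, or 1 FPKM in each population), the scaling (quantile normalization, or a common upper quartile), the threshold (2-fold) and the measure (plain ratio of FPKM), and 2 were added after seeing the data, a common median over genes of 5 FPKM or more and the subtraction of a running median by level. Of the 18 members higher in Lgr5+ and the 10 higher in Lgr6+ progenitors, 8 and 6 remained in number at 2-fold. Of the 63 other pathway genes kept, 21 and 17 were called at 1.5-fold and 9 and 11 at 2-fold. More of them were thus higher in Lgr6+ progenitors at 2-fold. Over all kept genes, 11.7% and 18.2% were called at 2-fold. The members higher in Lgr5+ and in Lgr6+ progenitors numbered 12 and 3 at a minimum of 5 FPKM, where 24.1% and 24.1% of all genes were, and 13 and 5 when both populations had to reach 1 FPKM, where 22.5% and 21.4% were. The median log2 change of the members was 0 without the filter, where 58 genes enter, and -0.45 at a minimum of 5 FPKM. *Acvr1c* changed sign to -0.0706 less the running median. The share of calls toward Lgr6+ progenitors over all kept genes was 55%, and lay between 48.7% when both populations had to reach 1 FPKM and 60.8% at 2-fold. The low values of Lgr5+ progenitors, where 1 step is worth more FPKM, limit the genes under an FPKM of about 1.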
